A study of Mus musculus with 22 samples.

Results

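The genes of mouse chromosome 16 were examined in lung metastases of mammary epithelial cells with and without extra PGC-1alpha. Members were all probe sets of the array that carried a gene symbol and whose identifier places them on chromosome 16, with the brightest probe set kept where a gene had several. This gave 614 genes out of 19505 on the array, and the reference gene table places all 614 on chromosome 16. Of these, 490 were bright enough to be tested, which meant lying above the 25th percentile of an array in at least 5 arrays. The other 124 included 30 of 36 olfactory receptor genes and 10 of 23 keratin-associated protein genes, and 92 of the 124 never reached that percentile in any array. The chromosome was chosen because its genes were already known, from these same arrays, to lie lower in the PGC-1alpha line. Counts and medians of the difference between the lines are therefore given as a description of its genes and not as a test of the chromosome.

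The injected cells were NMuMG, a mouse mammary gland epithelial line, carrying the oncogene ErbB2 in every group. They carried either PGC-1alpha (NMuMG-ErbB2/PGC-1alpha) or the control vector (NMuMG-ErbB2/VC), went in through the tail vein, and the mice then received phenformin for 1 week or PBS. Metastases were cut out by laser capture microdissection, and the array labelling started from 10 ng of RNA. There were 5 control and 6 PGC-1alpha samples under PBS, and 5 control and 6 PGC-1alpha samples under phenformin. The strain, age and number of mice and the selection of the lines are not given in the labels, so samples that share a mouse would make every p-value below too small. Each construct is represented by a single named line, and PGC-1alpha cannot be told apart from any other difference between those lines.

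Mouse chromosome 16 carries the genes for the interferon and interleukin-10 receptor chains, the superoxide dismutase Sod1, the claudins 1, 8 and 14, CD47 and the CD200 receptors, several nuclear genes for mitochondrial proteins, and clusters of keratin-associated protein and olfactory receptor genes. Its distal end corresponds to much of the human chromosome that is present in an extra copy in Down syndrome. PGC-1alpha is a transcriptional coactivator that works through nuclear respiratory factors, estrogen-related receptors and other factors to raise the output of mitochondrial genes. GABP, whose DNA-binding subunit is encoded by Gabpa on this chromosome, is an ETS-family factor that recognises promoters of many nuclear genes for respiratory chain proteins.

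Promoter windows of a pair of these genes show the sequence features examined on the chromosome. Gabpa was chosen because it encodes the factor that binds the ETS letters, and Cfap298 because every PGC-1alpha array lay below every control array for it. Both come from RefSeq on GRCm38.p6 and run from 250 bases before to 50 bases after the annotated start. The Gabpa window lies at chr16:84834874-84835173 on the forward strand and the Cfap298 window at chr16:90934800-90935099 on the reverse strand, each written in the direction of transcription. Capitals mark CTTCCGG, the reverse complement of the ETS core of GABP, CCGGAAG.
Gabpa: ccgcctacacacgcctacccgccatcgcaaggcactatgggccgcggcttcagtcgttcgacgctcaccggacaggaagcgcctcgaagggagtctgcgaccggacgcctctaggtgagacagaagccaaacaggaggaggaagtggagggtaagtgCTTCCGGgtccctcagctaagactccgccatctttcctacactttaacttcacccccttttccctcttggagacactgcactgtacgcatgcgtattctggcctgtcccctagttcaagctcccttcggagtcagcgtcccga
Cfap298: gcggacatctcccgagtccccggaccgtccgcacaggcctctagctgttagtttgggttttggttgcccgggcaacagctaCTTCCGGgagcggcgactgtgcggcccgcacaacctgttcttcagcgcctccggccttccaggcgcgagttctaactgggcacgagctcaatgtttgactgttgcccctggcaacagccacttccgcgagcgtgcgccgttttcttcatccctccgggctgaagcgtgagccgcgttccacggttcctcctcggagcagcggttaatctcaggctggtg
The Gabpa window shares 247 bases with a window of Atp5j, the gene for coupling factor 6 of the ATP synthase, which is transcribed the other way. Both windows hold the same ETS core.

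Of the 614 genes, 506 had a promoter window in the RefSeq table, giving 602 windows of 300 bases. The letters CCGGAAG were found, on either strand, in 15.1% of these 602 windows, in 8.86% of all 32851 windows of the table and in 13.9% of the windows of all tested genes. Among windows of chromosome 16 genes they occurred in 23.9% of the 155 windows of genes that were lower in the PGC-1alpha line, in 15.4% of the 306 windows of genes that were tested and not called, and in 7.41% of the 27 windows of higher genes. On the other chromosomes the same shares were 16.6% for lower genes and 13.9% for genes not called. The core GCGCATG of nuclear respiratory factor NRF1 was in 10.3% of windows of lower chromosome 16 genes (16 windows), 6.54% of those of chromosome 16 genes not called and 5.59% of those of all tested genes. It was in 3.7% of windows of higher chromosome 16 genes. On the other chromosomes it was in 6.71% for lower genes and 5.49% for genes not called. The half-site AAGGTCA of estrogen-related receptors was in 4.52% of windows of lower chromosome 16 genes, 5.23% of those of chromosome 16 genes not called and 3.56% of those of all tested genes. Its share was 3.7% for higher chromosome 16 genes, and on the other chromosomes 2.45% for lower genes and 3.73% for genes not called. Genes with several starts contribute several windows, and these shares are descriptions of the letters alone.

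The deposited values are log2 signals that the authors had already normalised. Array medians lay between 6.55 and 6.64, the medians of the negative control probe sets between 4.61 and 5.05, and the correlation between any 2 arrays between 0.958 and 0.988. Ppargc1a, the gene for PGC-1alpha, averaged 7.54 ± 0.60 (SD, n = 5) without the transgene and 8.90 ± 0.37 (n = 6) with it under PBS (difference 1.36, adjusted p = 0.0198 by limma), and 8.04 ± 0.39 and 8.64 ± 0.79 under phenformin (0.59, adjusted p = 0.166). The 9 markers of mammary tumour epithelium all lay above the negative controls, and their summed signal spanned 13.56 to 13.97 over all arrays on the log2 scale. Averaged over treatments, 2 of these 9 were lower and 1 higher in the PGC-1alpha line (median -0.12), against 13.3% and 11.3% of all genes. The higher marker was Erbb2 (0.35, adjusted p = 0.0193 by limma). Markers of normal lung were also present. A normal lung score, the mean deviation of alveolar, airway and endothelial markers from their average, was, in SD units, 0.078 to 1.014 in control and -0.992 to -0.041 in PGC-1alpha arrays under PBS, and -0.61 to 0.658 against -0.768 to 0.381 under phenformin. In such mixed tissue, fewer cells of a type and less RNA per cell cannot be told apart.

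Among chromosome 16 genes that passed the test between the lines, more were lower than higher in PGC-1alpha metastases in both treatments. Under PBS, 41 of the 490 tested genes were lower (8.37%) and 0 higher by limma with Benjamini-Hochberg adjustment over all 15545 tested genes at 0.05, where 1.72% of all genes were lower and 1.21% higher. At an unadjusted p under 0.05 there were 137 lower and 17 higher genes under PBS, or 31.4% against 18% of all genes, 167 and 58 under phenformin (45.9% against 37.1%), and 194 and 53 averaged (50.4% against 39%). Under phenformin, 120 were lower (24.5%) and 38 higher (7.76%), against 11.1% and 10% of all genes. Averaged over treatments, 158 were lower (32.2%) and 31 higher (6.33%), against 13.3% and 11.3% of all genes. Differences lay below 0 for 345 genes of the chromosome under PBS (70.4%, against 49.1% of all genes), 318 under phenformin (64.9%, against 49.6%) and 323 averaged (65.9%, against 47.5%). The median gene of the chromosome differed by -0.14 log2 units under PBS, -0.16 under phenformin and -0.14 averaged, while the median of all genes was 0.01, 0.00 and 0.02. Of the 490 genes, 35 were lower in both treatments and 277 lay below 0 in both, against 195 and 5319 of all 15545 genes.

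The PBS count depended on single arrays. It was 16 without PGC-1alpha array 1, 22 without 2 and 18 without 3, and 16, 23 and 17 without control array 2, 4 or 5 of the PBS groups. The averaged count ran only from 143 to 166 whichever array was left out, and the PBS median only from -0.16 to -0.13. Counts over all genes without single arrays are not given here. When the normal lung score entered the fit, 3 genes were lower under PBS, 100 under phenformin and 81 averaged, and the averaged median was -0.11. When an immune marker score entered it instead, the counts were 9, 108 and 114 and the averaged median was -0.14. Counts over all genes dropped as well, from 267, 1723 and 2071. They were 16, 1317 and 767 with the lung score and 46, 1430 and 1164 with the immune score. The PBS median of the chromosome was -0.12 and -0.14 in these fits. Of the 16 PBS calls among the genes named here, 3 held with the lung score (Gm609, Cfap298 and Vpreb1) and 6 with the immune score (these and Gtpbp8, Pigp and Smim11). Under phenformin 32 and 33 of 34 held. How far host cells contribute to the lower level of any gene was not tested beyond these fits.

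The shift was visible in each array. For every array the median deviation of chromosome 16 genes from their own means was compared with that of genes elsewhere. In control metastases this relative deviation was 0.084, 0.050, 0.054, 0.120 and 0.129 under PBS and 0.100, 0.065, 0.099, 0.057 and 0.076 under phenformin. In PGC-1alpha metastases it ran from -0.095 over a median of -0.080 to -0.055 under PBS, and from -0.092 over -0.067 to -0.044 under phenformin. All 10 control arrays lay above 0 and all 12 PGC-1alpha arrays below it. The normal lung score of the lines was likewise apart under PBS and overlapped under phenformin, and its part in this deviation was not tested. Among chromosomes 1 to 19 and X, chromosome 16 was the only member whose 2 lines were fully apart in this measure. Chromosome 18 missed this narrowly.

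**Figure D1:**
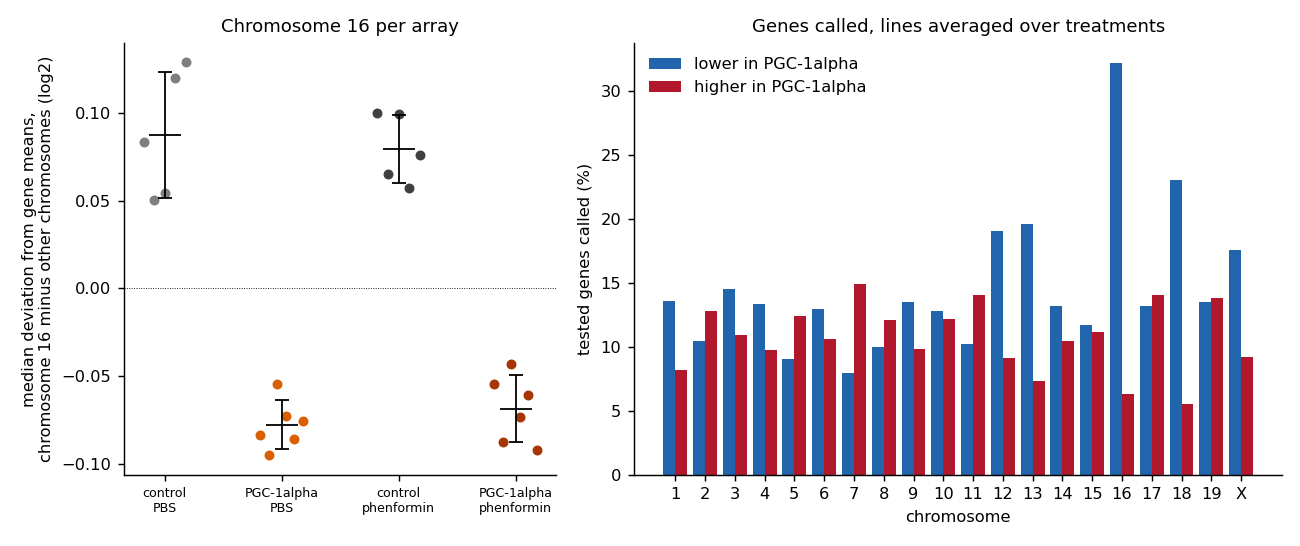
Left, the median log2 deviation of chromosome 16 genes relative to other chromosomes, with a point per array and group means with SD as bars (n = 5, 6, 5 and 6). Right, the percentage of tested genes on each chromosome called lower (blue) or higher (red) in the PGC-1alpha line, averaged over treatments. Control arrays all lie above 0 and PGC-1alpha arrays below it, and chromosome 16 has the tallest lower bar, at 32.2%.

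Chromosome 18 came closest. Its 360 tested genes had an averaged median of -0.12 with 23.1% lower, but only 1.94% were lower under PBS. Its lines overlapped by very little in the relative deviation. The highest PGC-1alpha array was at 0.0130 and the lowest control array at 0.0125. Under phenformin alone its median, -0.17, was below the -0.16 of chromosome 16. Over the chromosomes other than 16, the share of lower genes in the averaged comparison lay between 7.93% and 23.1%. No test was made of chromosome 16 against chromosome 18.

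Brighter genes were lower more often, both on chromosome 16 and elsewhere, and chromosome 16 lay below the rest at each brightness. All tested genes were cut into 4 equal bins by mean level. In the dimmest bin the averaged median was 0.02 for 125 chromosome 16 genes and 0.10 elsewhere. In the next 2 bins it was -0.08 against 0.06, and -0.24 against -0.04. In the brightest bin it was -0.28 for 127 chromosome 16 genes, of which 54.3% were lower, and -0.08 elsewhere, where 20.7% were lower. The median level of tested chromosome 16 genes, 7.39, was close to the 7.24 of all genes.

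For 16 genes, or 3.27% of those tested, every PGC-1alpha array lay below every control array in both treatments, and for 0 genes was the reverse seen. Among all genes these shares were 0.405% and 0.212%. The 16 were Naa60, Rsl1d1, Parl, Zfp148, Slc49a4, Gm609, Nectin3, Cd47, Chmp2b, Samsn1, Ltn1, Sod1, Cfap298, Ifngr2, Smim11 and Pigp, singled out after their values were seen. Their numbers per stretch of the chromosome were small, the stretches do not hold all of them, and their spread was not tested. The stretch from Umps to Cblb held 4 (4.35% of its tested genes) and the distal stretch from Hspa13 to Zbtb21 held 7 (6.8%). The stretch from Crebbp to Abcc1 held 1 (1.35%), and those from Psmd2 to Tfrc and from Nfkbiz to Epha3 held 0. The 16 genes belong to different processes, among them cell adhesion, endosomal sorting, translation and cytokine signalling.

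The largest difference was in Gm609, a predicted gene. Its log2 signal in control metastases was 9.82, 9.13, 8.27, 8.66 and 9.58 under PBS, and it ran from 6.21 over a median of 6.72 to 7.74 in PGC-1alpha metastases. Under phenformin it was 9.87, 8.97, 8.20, 9.59 and 8.15 in control metastases and ran from 6.63 over 7.08 to 7.93. Its level varied by more than 1 log2 unit within each group, yet the highest PGC-1alpha array stayed under the lowest control array. It was 4.73-fold lower under PBS (log2 difference -2.24, SE 0.34, adjusted p = 0.000942 by limma) and 3.57-fold lower under phenformin (-1.83, adjusted p = 0.00177).

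Samsn1, an adaptor protein of blood cells, had a log2 signal of 8.20, 8.004, 8.08, 8.24 and 8.46 in control metastases under PBS and 6.93 to 7.65 with a median of 7.13 in PGC-1alpha metastases. Under phenformin the control values were 7.95, 8.26, 8.76, 8.47 and 8.98 and the PGC-1alpha values 6.30 to 7.59, median 6.89. The lines were apart in both treatments. Samsn1 fell by 0.99 log2 units under PBS (SE 0.22, adjusted p = 0.0156) and by 1.51 under phenformin (adjusted p = 0.000377), and the change of this difference with treatment did not pass (interaction -0.51, SE 0.30, adjusted p = 0.53).

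Nectin3 encodes a cell adhesion molecule of adherens junctions. Its control values under PBS were 8.45, 9.24, 8.90, 8.69 and 8.53, against 7.36 to 8.42 with a median of 8.01 in PGC-1alpha metastases. Under phenformin the control values were 9.01, 8.79, 8.55, 8.65 and 9.10, against 6.81 to 8.11 with a median of 7.62. The lines nearly touched under PBS and were clearly apart under phenformin. Nectin3 fell by 1.29 log2 units under phenformin (SE 0.20, adjusted p = 0.000804). The PBS difference of -0.77 passed (adjusted p = 0.0399) but not without any of 8 of the PBS arrays, with -0.83 to -0.64: PGC-1alpha arrays 1, 2, 3 and 5 and control arrays 2, 3, 4 and 5.

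Cfap298, needed for the assembly of motile cilia, had control values of 9.69, 10.19, 9.30, 9.81 and 10.01 under PBS and 9.67, 9.65, 9.67, 9.62 and 9.77 under phenformin. In PGC-1alpha metastases it ran from 8.42 over a median of 8.70 to 9.18 under PBS and from 8.43 over 8.85 to 9.14 under phenformin. Control arrays under phenformin were tightly grouped, and all lay above the PGC-1alpha arrays. The gene fell by 1.04 log2 units under PBS (SE 0.16, adjusted p = 0.000845) and by 0.86 under phenformin (adjusted p = 0.00156).

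Pigp, a subunit of the enzyme that starts the GPI anchor, and Smim11, a small membrane protein, lie in the same stretch as each other. Control values of Pigp were 10.84, 10.82, 10.35, 10.50 and 10.57 under PBS, and PGC-1alpha values 9.66 to 10.09 with a median of 9.84. Control values of Smim11 were 9.96, 10.11, 9.87, 9.91 and 10.23 under PBS, and PGC-1alpha values 8.99 to 9.48 with a median of 9.30. Both genes were apart between the lines. Pigp fell by 0.77 log2 units under PBS (SE 0.14, adjusted p = 0.00444) and by 0.82 under phenformin (adjusted p = 0.000985). Smim11 fell by 0.76 (SE 0.13, adjusted p = 0.00406) and by 0.90 (adjusted p = 0.000377).

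Sod1, the cytosolic copper and zinc superoxide dismutase, shifted little but evenly. Its control values were 12.26, 12.16, 12.28, 12.02 and 12.24 under PBS and 12.22, 12.25, 12.11, 12.18 and 12.10 under phenformin. PGC-1alpha values were 11.81 to 11.96 (median 11.89) and 11.78 to 11.93 (median 11.86). The lines did not overlap, since the spread within each group was under 0.3 log2 units. The averaged difference was -0.31 (SE 0.06, adjusted p = 0.000811).

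Other genes with large averaged differences came from many processes. They included P3h2, a prolyl hydroxylase of collagens (-1.01, SE 0.15, adjusted p = 0.000137), Pi4ka, a phosphatidylinositol kinase of the plasma membrane (-0.96, adjusted p = 7.06e-05), and Rtp4, an interferon-induced gene (-0.95, adjusted p = 0.000651). Gtpbp8, a GTP-binding protein, fell by 0.92 (adjusted p = 5.79e-06) and Ift57, of the transport machinery of cilia, by 0.86 (adjusted p = 0.00194). Ripk4, a kinase of epidermal differentiation, fell by 0.73 (adjusted p = 0.000122) and Iqcg, of motile cilia, by 0.70 (adjusted p = 0.00622).

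**Figure D2:**
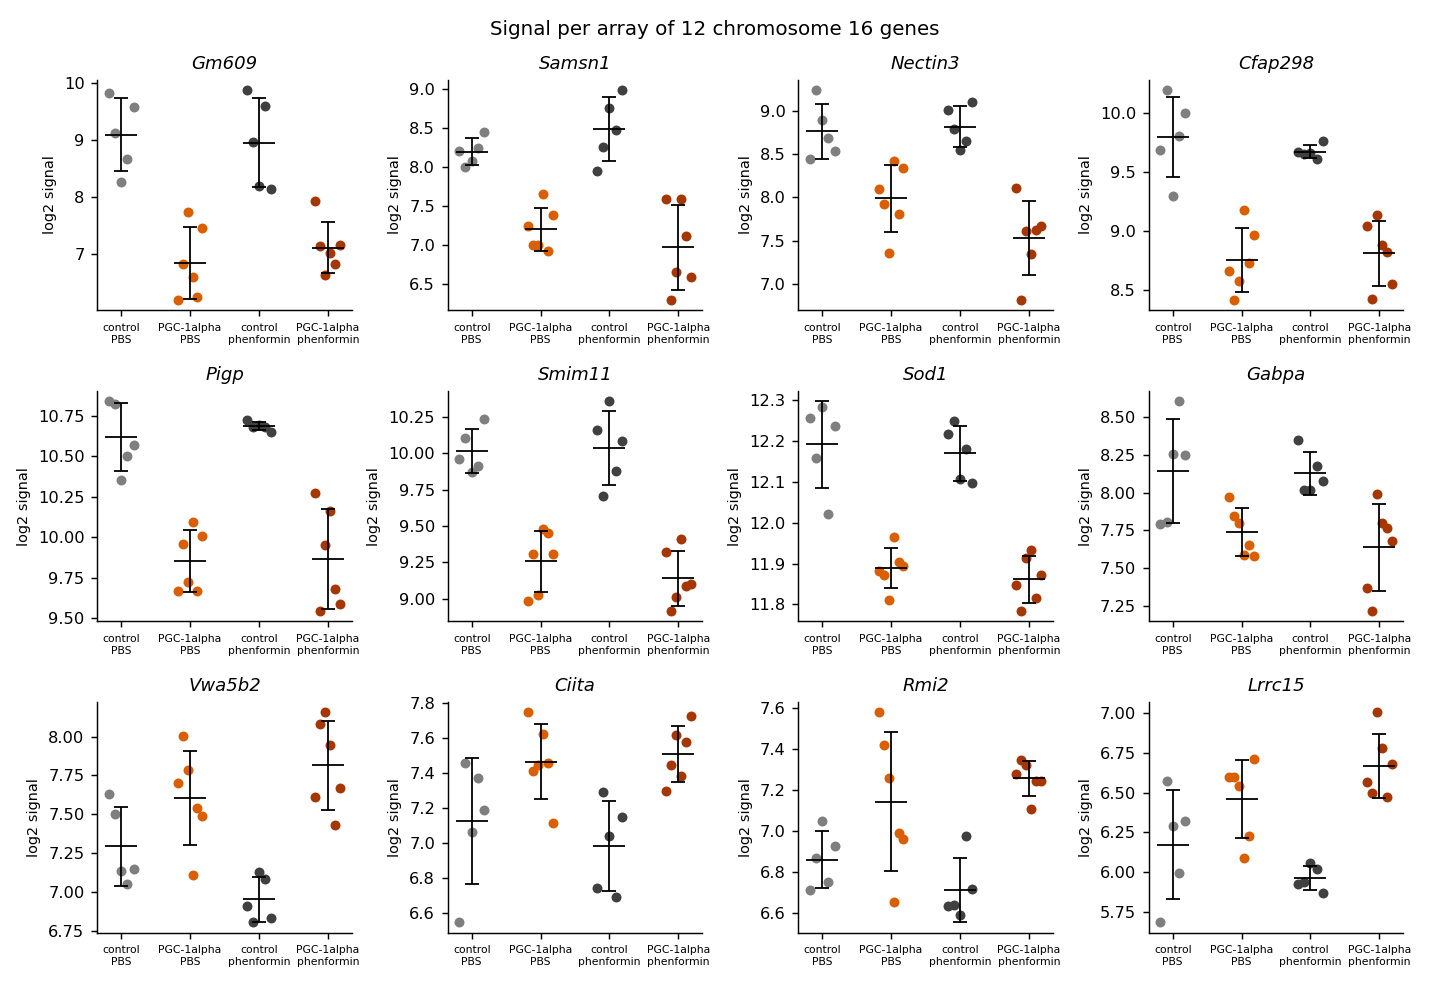
Log2 signal of 12 chromosome 16 genes, with a point per array and group means with SD as bars (n = 5, 6, 5 and 6). In the top 7 panels, from Gm609 to Sod1, the PGC-1alpha arrays lie below the control arrays in both treatments. Gabpa overlaps, and Vwa5b2, Ciita, Rmi2 and Lrrc15 are higher in PGC-1alpha arrays on average.

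Genes were next grouped by function into 21 lists that hold 271 of the tested genes. The averaged median lay below 0 in 17 lists and above 0 in 4. All counts below refer to the difference averaged over treatments. For all genes 13.3% were lower and the median was 0.02. For the tested genes of the chromosome, to which every list belongs, 32.2% were lower and the median was -0.14. In its 2 brighter bins 41.3% and 54.3% were lower. Median levels of the mitochondrial, translation, folding and ubiquitin lists were 8.23, 8.25, 8.67 and 8.95, above the 7.39 of the chromosome. No list was tested against the rest of the chromosome.

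Nuclear genes for mitochondrial proteins that passed were nearly all lower. Of 27 tested members 14 were lower and 1 higher, with a median of -0.34. Yars2, the mitochondrial tyrosyl-tRNA synthetase, fell by 0.64 (SE 0.11, adjusted p = 0.000467), the inner membrane protein gene Mpv17l by 0.71 (adjusted p = 0.00513) and Ccdc58, of the mitochondrial import pathway, by 0.62 (adjusted p = 0.000722). Parl, a protease of the inner membrane, fell by 0.52 (adjusted p = 0.000233). Nsun3, a methyltransferase of a mitochondrial tRNA, had -0.53 and did not pass (adjusted p = 0.103). Prodh, the proline dehydrogenase, was the higher member (0.25, adjusted p = 0.0404), a call that was lost without any of 13 arrays (0.22 to 0.25).

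Gabpa and its neighbour Atp5j were both lower averaged over treatments. Control values of Gabpa were 7.79, 7.81, 8.25, 8.60 and 8.25 under PBS and 8.35, 8.02, 8.02, 8.18 and 8.07 under phenformin, and PGC-1alpha values 7.58 to 7.97 (median 7.73) and 7.22 to 7.99 (median 7.72). The lines overlapped under PBS, and under phenformin the lowest control array lay just above the highest PGC-1alpha array. The averaged difference of Gabpa was -0.44 (SE 0.10, adjusted p = 0.00442). That of Atp5j was -0.38 (SE 0.10, adjusted p = 0.00735), with control values of 10.51, 10.99, 10.67, 11.09 and 11.01 under PBS against 10.13 to 10.59 in PGC-1alpha metastases. Nrip1, a corepressor of nuclear receptors that opposes PGC-1alpha in metabolic tissues, had 0.23 (SE 0.14, adjusted p = 0.244).

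Genes of RNA and protein production followed. All 17 tested genes of translation and RNA processing lay below 0, 9 of them passed, and the median was -0.30. Zc3h7a, an RNA-binding zinc finger protein, fell by 0.89 (SE 0.18, adjusted p = 0.00164), Ncbp2, the small subunit of the nuclear cap-binding complex, by 0.84 (adjusted p = 0.00012), and Rsl1d1, of ribosome assembly, by 0.67 (adjusted p = 3.45e-05). Polr2h, a subunit shared by the RNA polymerases, fell by 0.61 (adjusted p = 0.000181) and the deadenylase gene Parn by 0.60 (adjusted p = 0.0121). All 9 genes of protein folding and the proteasome also lay below 0, with 6 lower and a median of -0.32. Among them the chaperone gene Hspa13 fell by 0.59 (adjusted p = 0.00114) and Dnajb11, a chaperone of the endoplasmic reticulum, by 0.51 (adjusted p = 0.00617).

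Of 17 enzymes that attach or remove ubiquitin and SUMO, 10 were lower and 1 higher (median -0.27). The SUMO proteases Senp2 and Senp5 fell by 0.67 (SE 0.11, adjusted p = 0.000225) and 0.47 (adjusted p = 0.00178), the ubiquitin protease gene Usp25 by 0.65 (adjusted p = 0.00104), and Ltn1, a ligase that clears stalled ribosomes, by 0.61 (adjusted p = 0.000155). Bfar, a regulator of cell death, was higher (0.31, adjusted p = 0.00724).

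Genes of DNA replication, repair and the centromere had the lowest median of the lists with more than 5 tested members, -0.37 over 16 genes, with 8 lower and 1 higher. Mis18a, which helps to load the centromeric histone, fell by 0.76 (SE 0.10, adjusted p = 3.45e-05). Prkdc, the catalytic subunit of DNA-dependent protein kinase, fell by 0.75 (adjusted p = 0.003) and Cep97, of the centriole, by 0.70 (adjusted p = 0.00164). Prkdc was dim, at 4.33 to 5.41 in PGC-1alpha arrays under phenformin, beside negative control medians of 4.61 to 5.05. The size of its difference is therefore uncertain. Spice1, also of the centriole, had -0.68 (adjusted p = 0.0446), a call lost without any of 15 arrays (-0.70 to -0.56). Rmi2, a partner of the Bloom helicase, was higher. Its control values were 6.71, 6.86, 7.05, 6.75 and 6.92 under PBS and 6.63, 6.64, 6.59, 6.97 and 6.72 under phenformin, against 6.65 to 7.58 and 7.10 to 7.34. The lines were apart under phenformin only, and the averaged difference was 0.41 (SE 0.09, adjusted p = 0.00318).

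Of 6 tested genes of interferon and cytokine receptors and Socs1, 3 were lower and 0 higher (median -0.25). Ifngr2, a chain of the interferon gamma receptor, had control values of 10.52, 10.54, 10.28, 10.60 and 10.24 under PBS and 10.51, 10.48, 10.46, 10.53 and 10.51 under phenformin, against 9.72 to 10.20 and 9.75 to 10.04 in PGC-1alpha metastases. The lines were apart in both treatments, and the averaged difference was -0.53 (SE 0.07, adjusted p = 3.45e-05). Il1rap, the shared subunit of interleukin-1 receptors, fell by 0.87 (SE 0.14, adjusted p = 0.000216) and Ifnar2, of the type I interferon receptor, by 0.30 (adjusted p = 0.0046). The receptor chains Ifnar1 (-0.19, adjusted p = 0.121) and Il10rb (-0.21, adjusted p = 0.0796) and the cytokine inhibitor Socs1 (0.23, adjusted p = 0.0975) did not pass. Besides Rtp4, which was in no list, the list of interferon-induced genes had 4 tested members, all below 0, of which 2 were lower: Parp14 (-0.41, SE 0.13, adjusted p = 0.0211) and its neighbour Dtx3l (-0.37, adjusted p = 0.00935).

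Most leukocyte genes lay below 0. Of 19 tested, 15 did so, 7 were lower and 1 higher, with a median of -0.10. Cd47, the surface signal that inhibits engulfment by macrophages, had control values of 11.80, 11.64, 11.52, 11.46 and 11.59 under PBS and 11.56, 11.86, 11.44, 11.64 and 11.71 under phenformin, against 10.95 to 11.23 and 10.85 to 11.41. The lines were apart, and the averaged difference was -0.51 (SE 0.08, adjusted p = 0.000226). Vpreb1, the surrogate light chain of precursor B cells, fell by 0.68 (SE 0.08, adjusted p = 1.21e-05). The inhibitory receptor genes Cd200r4 and Cd200r1 averaged below the negative controls in both PGC-1alpha groups, so their folds are bounds. Cd200r4 was at least 1.57-fold lower under PBS (adjusted p = 0.032) and at least 1.81-fold lower under phenformin (adjusted p = 0.00892). Its PBS call was lost without PGC-1alpha array 1, 2, 4 or 5 or control array 2 or 4 of the PBS groups (log2 difference -1.16 to -1.05). Cd200r1 was at least 1.66-fold lower under phenformin (adjusted p = 0.0185), a call lost without control array 2 of that treatment (-0.71), and did not pass under PBS (adjusted p = 0.17). The higher member was Ciita, the master activator of MHC class II genes, with control values of 6.55, 7.46, 7.06, 7.37 and 7.19 under PBS and 6.75, 7.29, 7.04, 6.69 and 7.15 under phenformin, against 7.11 to 7.75 and 7.30 to 7.73. Control arrays were widely spread and overlapped the PGC-1alpha arrays under PBS, and the averaged difference was 0.43 (SE 0.11, adjusted p = 0.00601).

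Markers of blood cells outside chromosome 16 differed by cell type. Of 6 tested neutrophil markers 5 were lower and 0 higher (median -0.78), and the log2 of their summed signal was 11.33 to 11.64 in control and 10.15 to 11.20 in PGC-1alpha metastases under PBS, and 10.92 to 11.42 against 10.02 to 10.71 under phenformin. Of 8 tested T and NK cell markers 2 were lower and 0 higher (median -0.22), with summed signals of 9.44 to 9.96, 8.76 to 9.55, 9.04 to 10.02 and 8.95 to 9.54 in the same order. Of 6 macrophage markers 0 were lower and 1 higher (median 0.07), with 10.21 to 10.85, 10.93 to 11.27, 10.53 to 11.22 and 10.50 to 11.23. Of 3 tested B and plasma cell markers 0 were lower and 1 higher (median 0.23), with 6.75 to 7.03, 6.59 to 6.91, 6.62 to 7.09 and 6.88 to 7.20. Ngp, Klrb1c, Chil3, Jchain and Mzb1 lay below the negative controls on average, as did the T cell gene Trat1 of chromosome 16. The part of these cells in the leukocyte genes of the chromosome was not tested.

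Epithelial junction and surface genes had 7 of 20 lower and 0 higher (median -0.25). Besides Nectin3, the claudin gene Cldn8 had -1.10 (SE 0.24, adjusted p = 0.00234) and Emp2, a membrane protein abundant in alveolar type 1 cells, -0.39 (adjusted p = 0.00287). Upk1b, a protein of the urothelial surface, had -0.83 and did not pass (adjusted p = 0.0658). Of 8 tested endothelial markers 1 was lower and 0 higher (median -0.32), of 7 alveolar type 1 markers 1 and 0 (median -0.25), of 7 alveolar type 2 markers 2 and 0 (median -0.21), and of 6 club and ciliated cell markers 0 and 0 (median -0.64), each outside chromosome 16. Their summed log2 signal, in the order control and PGC-1alpha under PBS and then under phenformin, was 11.58 to 12.47, 10.99 to 12.05, 11.90 to 12.30 and 11.18 to 12.12 for endothelial markers. It was 12.43 to 12.71, 11.84 to 12.46, 12.09 to 12.67 and 11.95 to 12.63 for alveolar type 1 markers. It was 14.50 to 14.71, 14.30 to 14.66, 14.40 to 14.69 and 14.30 to 14.76 for alveolar type 2 markers, and 9.45 to 13.02, 8.78 to 12.16, 9.80 to 12.77 and 9.12 to 13.68 for club and ciliated cell markers.

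Of the 87 named genes with an averaged call, 52 kept it once the lung score was in the fit and 68 with the immune score. The 35 that lost it with the lung score, at adjusted p-values of 0.0509 to 0.5, included Emp2 (-0.23, adjusted p = 0.138 by limma), Cldn8 (-0.73, adjusted p = 0.0977), Gabpa (-0.36, adjusted p = 0.0873), Atp5j (-0.30, adjusted p = 0.12) and Parp14 (-0.28, adjusted p = 0.263). The others among them were B4galt4, Bfar, Chrd, Crkl, Dnajb11, Dtx3l, Hes1, Hmgn1, Hunk, Ifnar2, Iqcg, Krtap14, Krtap19-5, Meltf, Mpv17l, Ncam2, Olfr175, Pcyt1a, Pigx, Prkdc, Prodh, Sdf2l1, Sec22a, Senp5, Shisa9, Slc51a, Spice1, St3gal6, Tnk2 and Ubn1. Gm609, Samsn1, Nectin3, Cfap298, Pigp, Smim11, Sod1, Cd47 and Ifngr2 were among the genes that kept it with both scores.

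Enzymes of metabolism and glycosylation that passed were all lower. Of 13 metabolic and antioxidant genes 6 were lower and 0 higher (median -0.25), led by Umps, of pyrimidine synthesis (-0.74, SE 0.12, adjusted p = 0.00027), and Pcyt1a, the rate-limiting enzyme of phosphatidylcholine synthesis (-0.58, adjusted p = 0.00408). Of 11 glycosylation genes 7 were lower and 0 higher (median -0.28). Among them the sialyltransferase gene St3gal6 fell by 0.80 (SE 0.15, adjusted p = 0.000935), the xylosyltransferase gene Xxylt1 by 0.65 (adjusted p = 0.00287), the galactosyltransferase gene B4galt4 by 0.52 (adjusted p = 0.00674) and Pigx, of GPI anchor synthesis, by 0.49 (adjusted p = 0.00325).

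Medians of regulatory genes lay closer to 0. Of 24 transcription factors and coregulators 5 were lower and 3 higher, with a median of -0.07. Zbtb21, a zinc finger repressor, had -0.55 (SE 0.11, adjusted p = 0.00129), Nfkbiz, a nuclear partner of NF-kappaB, -0.50 (adjusted p = 0.000907) and the HMG-box gene Bbx -0.44 (adjusted p = 0.0116). Olig2, a factor of glial precursors, had 0.35 (adjusted p = 0.0161), the Notch target Hes1 0.29 (adjusted p = 0.0132), and Runx1, of blood and mammary cells, 0.33 without passing (adjusted p = 0.05). Of 17 kinases and adaptors 4 were lower and 1 higher (median -0.07), and Hunk (-0.57, adjusted p = 0.0112) and Crkl (-0.34, adjusted p = 0.00874) followed Pi4ka. Of 9 chromatin regulators 2 were lower and 0 higher (median -0.04), among them the nucleosome-binding gene Hmgn1 (-0.38, adjusted p = 0.0398), and of 15 channels, pumps and carriers 3 were lower and 2 higher (median -0.07). The nucleotide sugar carrier family gene Slc35a5 fell by 0.56 (adjusted p = 0.000466) and Slc51a, of the bile acid transporter, rose by 0.37 (adjusted p = 0.00414). Of 5 plasma protein genes 0 passed (median -0.10), and the single tested gene of the stefin cluster, Cstdc4, had -0.38 without passing.

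The lists with a median above 0 held matrix, neuronal, hair and olfactory genes, whose counts stand beside the 11.3% of all genes that were higher. Of 11 matrix and stromal genes 0 were lower and 3 higher (median 0.19). They were Lrrc15, a surface protein of fibroblasts (0.50, SE 0.10, adjusted p = 0.00163), Vasn, a binding protein of TGF-beta (0.44, adjusted p = 0.00144), and Chrd, the BMP antagonist chordin (0.33, adjusted p = 0.0109). Lrrc15 control values were 5.69, 6.58, 6.29, 5.99 and 6.32 under PBS and 5.92, 5.94, 6.06, 6.02 and 5.87 under phenformin, against 6.09 to 6.71 and 6.47 to 7.004. The lines were apart under phenformin and overlapped under PBS. Of 7 tested fibroblast and smooth muscle markers elsewhere in the genome 0 were lower and 1 higher (median 0.22), with summed signals of 11.97 to 12.47, 11.80 to 13.11, 12.21 to 12.89 and 12.03 to 12.74. Neuronal adhesion and receptor genes had 0 of 13 lower and 2 higher, Ncam2 and Shisa9 (median 0.03). Keratin-associated protein genes had 0 of 13 lower and 3 higher (median 0.15), and olfactory receptor genes 0 of 6 lower and 1 higher, Olfr175 (0.38, adjusted p = 0.00646). These last lists were dim, with median levels of 6.03, 5.48 and 5.17, and among dim genes of the other chromosomes the median was also above 0.

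**Figure D3:**
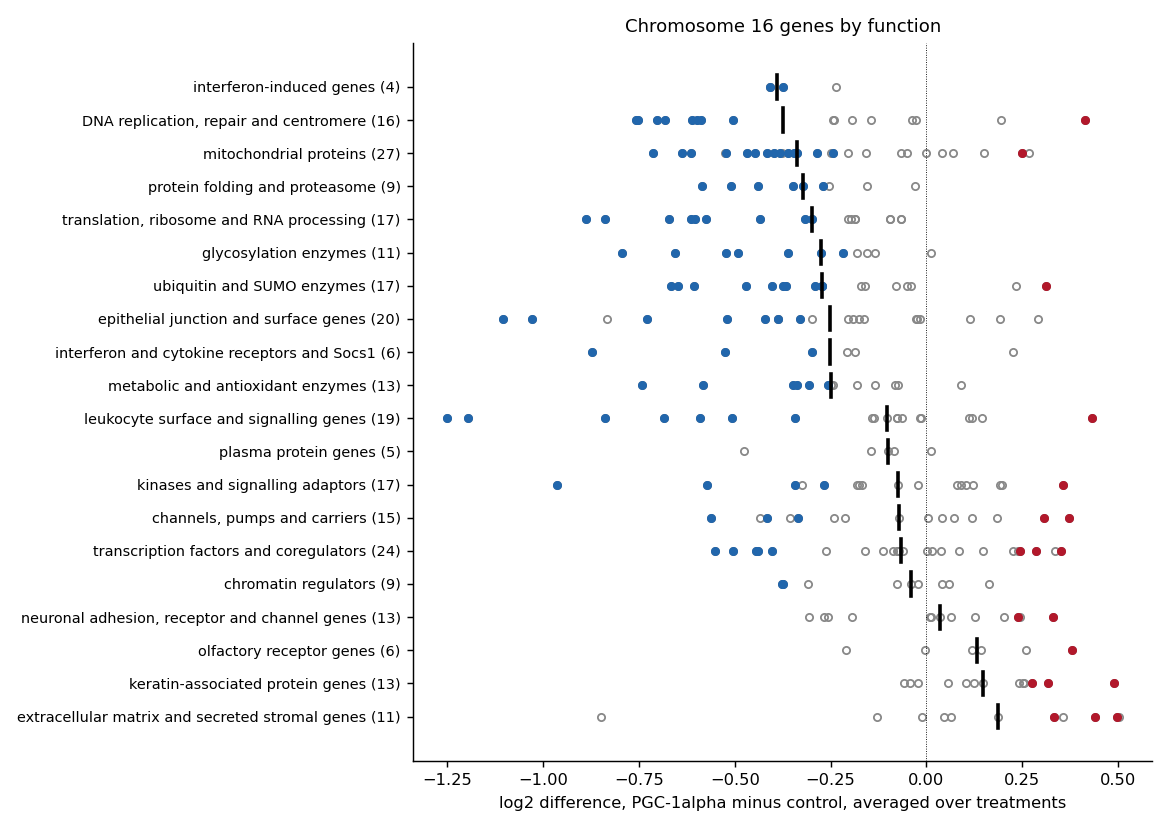
Log2 difference between PGC-1alpha and control, averaged over treatments, for the tested chromosome 16 genes of 20 functional lists with more than 1 tested member, whose number stands in brackets. Each point is a gene, filled blue if lower and red if higher at an adjusted p under 0.05 and open otherwise, and black bars are list medians. Most lists have their median left of 0, and matrix, keratin-associated, olfactory and neuronal genes lie right of it.

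The single gene with the largest rise was Vwa5b2, a protein with a von Willebrand factor domain. Its control values were 7.63, 7.50, 7.14, 7.05 and 7.15 under PBS and 6.91, 6.81, 7.13, 7.08 and 6.83 under phenformin, against 7.11 to 8.002 and 7.43 to 8.15 in PGC-1alpha metastases. The lines overlapped under PBS and were apart under phenformin, where the difference was 0.86 (SE 0.16, adjusted p = 0.00152), while under PBS it was 0.31 (adjusted p = 0.292). Other genes higher under phenformin were Ripply3, a transcriptional corepressor (0.86, adjusted p = 0.016), Rtn4r, the Nogo receptor (0.62, adjusted p = 0.0058), and the mucin gene Muc4 (0.64, adjusted p = 0.0217). Without control array 4 of the phenformin group the difference of Ripply3 was 0.56 (adjusted p = 0.0464). Muc4 did not pass without PGC-1alpha array 3 of the phenformin group (0.48). None of Ripply3, Rtn4r and Muc4 was above 0 under PBS (-0.06, -0.14 and -0.06), and none passed in the averaged comparison.

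Position was described along the order of the genes, taken from the reference table because the order of the probe set identifiers steps back at 3 places. In windows of 25 consecutive tested genes, the averaged median lay below 0 in 17 of 20 windows, and in 17 windows it lay below 0 in both treatments. Each of the 20 windows held at least 1 lower gene, and 6 held 0 higher genes. In 7 windows the arrays of the lines did not overlap in the median deviation of the window. Lower genes made up 12% to 48% of a window, where 13.3% of all genes were lower. No windows of other chromosomes were made for comparison, and the spread of lower genes along the chromosome was not tested.

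The lowest window ran from Zfp148 to Cstdc4, with a median of -0.32, 9 lower genes and 1 higher. It holds Umps, Parp14, Dtx3l, Ccdc58 and Slc49a4, a lysosomal carrier that fell by 0.62 (SE 0.09, adjusted p = 0.000121), and begins with Zfp148, a zinc finger factor that fell by 0.64 (adjusted p = 3.88e-05). The neighbouring window from Pigx to Snx4 had a median of -0.30 with 10 lower and 2 higher. The window from Arhgap31 to Atg3, with Gtpbp8 and the CD200 receptor genes, had -0.27 with 10 lower and 0 higher, and the window from Stx19 to App, with Samsn1, Usp25, Atp5j, Gabpa and the endosomal sorting gene Chmp2b (-0.61, SE 0.09, adjusted p = 0.000129), had -0.27 with 10 lower and 1 higher. In the last 3 of these 4 windows the arrays of the lines were apart.

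A window near the start of the chromosome stood out in the other direction. From Emp2 to Pla2g10 the median was 0.10, with 4 lower and 7 higher genes. Ciita, Rmi2, Bfar and Pla2g10, a secreted phospholipase (0.34, SE 0.08, adjusted p = 0.00328), were among the higher genes, and Zc3h7a, Rsl1d1, Parn and Emp2 were the lower ones. Lower and higher genes lay side by side there. The window from Cyyr1 to Krtap7-1 had 0.06, with 3 lower and 5 higher, and includes 12 tested keratin-associated protein genes, while Cldn8, Ltn1 and the methyltransferase gene N6amt1 (-0.67, SE 0.14, adjusted p = 0.00198) fell. The window from Vpreb1 to Klhl22 had 0.01, with 7 lower and 0 higher, among them Pi4ka, Vpreb1 and Snap29, a protein of membrane fusion (-0.51, adjusted p = 0.0016).

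Larger stretches were also described. The stretch from Crebbp to Abcc1 near the start had a median of -0.07 over 74 tested genes, with 20 lower and 9 higher. Medians were -0.17 from Psmd2 to Tfrc (69 genes, 24 lower, 7 higher), -0.22 from Umps to Cblb (92 genes, 35 lower, 2 higher) and -0.23 from Nfkbiz to Epha3 (29 genes, 9 lower, 1 higher). At the distal end, from Hspa13 to Zbtb21, which matches the human chromosome of Down syndrome, it was -0.11 over 103 genes, with 34 lower and 7 higher. Differences between stretches were not tested.

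**Figure D4:**
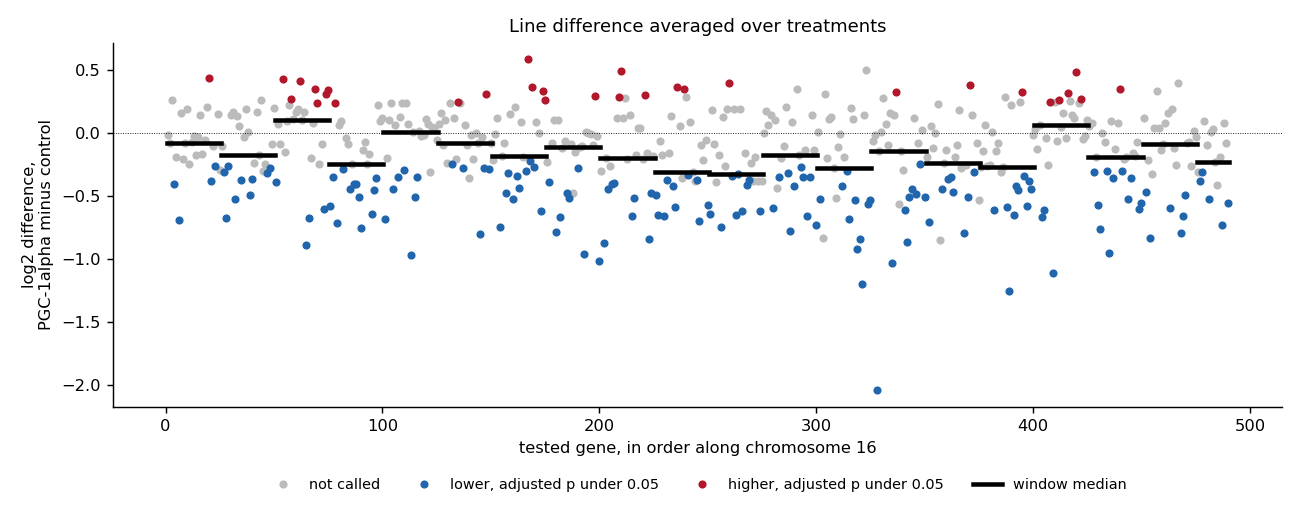
Log2 difference between PGC-1alpha and control, averaged over treatments, for the 490 tested genes in their order along chromosome 16. Blue points are lower and red points higher at an adjusted p under 0.05, grey points were not called, and black bars are medians of windows of 25 genes. Blue points occur along the whole chromosome, and 3 window medians lie above 0.

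The effect of phenformin within each line was compared last. In control metastases 0 of 490 genes passed, and 0% of all genes were lower or higher. At an unadjusted p under 0.05 there were 43 (8.78%), against 9.64% of all genes, and the median difference between phenformin and PBS was -0.01. In PGC-1alpha metastases 0 genes passed, 21 had an unadjusted p under 0.05 (4.29%, against 4.34% of all genes), and the median was -0.01. For the interaction, which asks whether the line difference changed with treatment, 0 passed, 51 had an unadjusted p under 0.05 (10.4%, against 11.1%), and the median was -0.01.

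The genes with the smallest p in these tests did not pass. In control metastases the smallest p among lower genes was that of Vpreb1, with a difference of -0.45 under phenformin (SE 0.12, adjusted p = 0.228 by limma), and among higher genes that of Il1rap, with 0.65 (SE 0.21, adjusted p = 0.312). In PGC-1alpha metastases the smallest p among lower genes was that of Rrn3, an initiation factor of RNA polymerase I, with -0.33 (SE 0.11, adjusted p = 0.957). For the interaction Rtn4r had the smallest p among positive values, with 0.76 (SE 0.20, adjusted p = 0.228), and Ercc4, a nuclease of DNA repair, that among negative values, with -0.80 (SE 0.21, adjusted p = 0.228). A treatment effect or a changed line difference was thus not detectable for any gene of the chromosome with 5 or 6 arrays per group.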

How the data were processed

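Transcripts were measured on 22 whole-transcript microarrays of laser-captured lung metastases. The authors deposited log2 values, already normalised. The submitters' processing notes name oligo. Its version, the background correction and the normalisation are not given in the sources used here. Another deposited table was not used because its 22 columns have bare numbers that match no sample.

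Of 28815 probe sets, 6609 were controls (5222 negative) and 19572 of the other 22206 had 1 gene symbol in GEO's platform annotation, giving 19505 genes with the brightest probe set kept for 55 genes. Of 674 non-control probe sets of chromosome 16, 615 had a symbol, for 614 genes. Testing needed 5 or more arrays with the gene over their 25th percentile (15545 genes). A model over all 22 arrays in 4 groups was fitted by lmFit and eBayes of limma 3.58.1 (R 4.3.3), which had 18 residual degrees of freedom and 5.67 from the prior, two-sided, with Benjamini-Hochberg adjustment over all 15545 genes and a threshold of 0.05. Differences are log2, with the SE of the fit, and group values are mean ± SD. The script was tested on simulated data. The number of arrays limits the precision.

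Where a group's mean lay below its median negative control, a fold is a bound with values raised to that control. Gene order came from the reference gene table (GRCm38.p6), which places genes relative to each other only. Windows hold 25 tested genes, the last window 15. A further planned stretch is not reported here. Promoters and their coordinates are RefSeq's on GRCm38.p6. Summed marker signals are the log2 of summed linear signals. Marker scores leave out chromosome 16 genes. Plots used Python 3.11.15 and matplotlib 3.10.9.

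Named genes are those with the largest differences per line comparison (up to 14 lower and 6 higher), the smallest p per treatment test, the extremes of each list, window and stretch, and Gabpa, Nrip1 and Sod1, and not all of them are named. Genes named outside this rule, such as Atp5j, were chosen after their values were seen. The members, lists and stretches were chosen with earlier results of these data known. Alternatives were other scalings, filters on dim genes, marker scores as covariates, a variance trend, only the groups compared, the replicate number as a block and leaving out each array.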

Additional observations from a re-analysis of the deposited data

Results flagged for a closer look

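Among the named genes, 16 of 408 groups of arrays held an array far from the others of its group by Dixon's test (3.92%), where chance flags about 1 in 20. The values are log2 signals. Under phenformin, control array 3 had 6.62 for Cd200r4 (others 5.29 to 5.62), control array 4 had 4.64 for Ripply3 (5.95 to 6.36) and 6.28 for Pla2g10 (6.54 to 6.63), and control array 2 had 8.58 for Upk1b (5.85 to 6.55). In PGC-1alpha metastases under phenformin, array 6 had 7.13 for Ncbp2 (6.62 to 6.70), array 3 had 8.40 for Muc4 (7.23 to 7.62) and 5.54 for Ncam2 (4.93 to 5.15), and array 2 had 6.99 for Robo1 (7.47 to 7.70). In PGC-1alpha metastases under PBS, array 3 had 6.59 for Vpreb1 (5.94 to 6.19) and 7.08 for Mx2 (6.61 to 6.69), array 4 had 7.30 for Ripk4 (6.49 to 6.70), and array 1 had 5.75 for Zbtb21 (6.26 to 6.48). In control metastases under PBS, array 5 had 9.72 for Polr2h (9.96 to 10.04) and 8.04 for Parp14 (7.20 to 7.34), and array 3 had 8.23 for Ccdc80 (6.65 to 7.08) and 7.58 for Abat (6.77 to 6.97). No explanation of these values was tested.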

How the results depend on the processing

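Values are counts of lower or higher chromosome 16 genes by limma, or their median log2 difference between the lines. Under PBS, 21 genes were lower when only the groups compared were fitted, 3 with the normal lung score and 9 with the immune score as a covariate, against 41. The PBS median was -0.10 with no filter on dim genes and -0.21 with a filter at the array median. Under phenformin, 23 were higher with cyclic loess and 22 with the stricter filter, against 38, and the median was -0.21 with arrays centred on their medians, which moved the median of all genes from 0.00 to -0.05, -0.075 with no filter and -0.27 with the stricter filter. Averaged over treatments, 81 were lower and 10 higher with the lung score, and 12 higher with the immune score. Of all genes, 767 were lower and 505 higher with the lung score, against 2071 and 1760. With the immune score 856 of all genes were higher. The averaged median was -0.08 with no filter, -0.24 with the stricter filter and -0.11 with the lung score. The interaction median was -0.054 with centring and -0.058 with the stricter filter. Lower and higher calls under phenformin were 143 and 29 with centring, 88 and 28 with quantile normalisation and 95 and 23 with cyclic loess. Averaged, they were 174 and 26, 130 and 30, and 144 and 23.

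Leaving out each array gave 16 to 43 lower and 0 to 1 higher genes under PBS (medians -0.16 to -0.13), the 1 without control array 3 of the PBS group. Under phenformin it gave 90 to 126 lower and 26 to 39 higher genes (-0.18 to -0.14), and averaged 143 to 166 and 25 to 36 (-0.16 to -0.13). Of the named genes that passed, 78 of 87 averaged calls, 8 of 16 PBS calls and 28 of 34 phenformin calls held without each array. Averaged calls were lost for Hmgn1, Krtap14, Meltf, Ncam2, Prodh, Sec22a, Shisa9, Spice1 and Tnk2, phenformin calls for Cd200r1, Cep97, Ciita, Gabpa, Krtap19-5 and Muc4, and PBS calls for Cd200r4, Cep97, Ncbp2, Nectin3, P3h2, Pi4ka, Rtp4 and Sod1. Same-numbered arrays of different groups had a mean correlation of 0.02 of their deviations (-0.19 to 0.31), against -0.004 for other numbers. Of the 22 arrays, 9 correlated best with an array of their own number. Whether the replicate number marks a pairing of the samples was not tested. With the replicate block, 36 genes were lower under PBS, 114 lower and 39 higher under phenformin, and 154 lower and 35 higher averaged. Among named genes 1 averaged difference changed sign, that of Abat, an enzyme of GABA breakdown, which had not passed (0.27) and was -0.008 with the lung score. The 124 dim genes limit what can be said: 46 of them lay below 0 when all genes were fitted.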
